A study of Drosophila melanogaster with 4 samples.

Results

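The bithorax complex is a stretch of chromosome arm 3R of Drosophila melanogaster that holds the Hox genes Ubx, abd-A and Abd-B. All called positions of the protein Insensitive (Insv) that lay on 3R with a start between 12480000 and 12810000 of the dm3 genome build were taken as members, a choice that used location and no score. This interval of 330 kb held 31 of 5364 positions in younger embryos and 29 of 2390 in older ones, 60 of 7754 in all. The data come from chromatin immunoprecipitation followed by sequencing in embryos of the w[1118] strain, listed as wild type and kept at 25 degrees. Insv was immunoprecipitated once from embryos of 2.5-6 h (early) and once from embryos of 6.5-12 h (late); an IgG control of each window belongs to the series and was not analysed here. With 1 library per age there is no replicate error, and every comparison below describes these libraries without a test. Whole embryos were used, so binding in few cells and weak binding in many cannot be told apart.

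Ubx directs the identity of the posterior thorax and the anterior abdomen, abd-A that of the middle abdomen and Abd-B that of the posterior abdomen and genitalia. Their expression is set by a series of parasegment-specific regulatory domains, which are kept apart by chromatin boundaries such as Mcp, Fab-7 and Fab-8, and is held by Polycomb and Trithorax group proteins. Insv is a BEN-domain protein that binds DNA directly and acts as a transcriptional repressor, and from genetic and binding work it is known as a factor of the Fab-7 boundary. Along 3R, the Release 6 gene table gives the order of protein-coding genes as modSP, Ubx, CG31275, Glut3, abd-A, MSAmiP, Abd-B and VhaM9.7-d. No dm3 annotation or sequence was used here, so positions are named by their dm3 coordinate (first base, counted from 1) and none is assigned to Ubx, abd-A, Abd-B or a named boundary.

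The number of Insv positions was compared between the bithorax interval and the other intervals of equal length on 3R. Of all 83 such intervals laid end to end, it held the most late positions, 29, ahead of 23 in the next and a median of 6. With 31 early positions it ranked behind 40 and 35 in a pair of other intervals and level with 1 more, against a median of 14. The interval made up 1.18% of the span of positions on 3R and held 2.40% of its early and 5.03% of its late positions. The adjoining interval to the left had 15 early and 5 late positions, and that to the right 6 and 2.

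**Figure D1:**
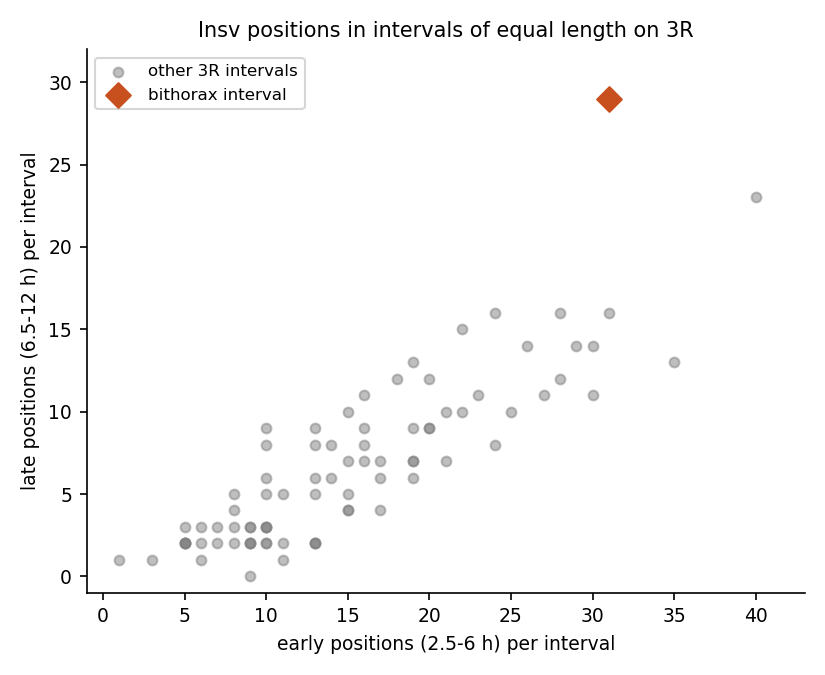
Number of Insv positions called in 2.5-6 h embryos (horizontal axis) and in 6.5-12 h embryos (vertical axis) in each of 83 intervals of 330 kb on 3R; every point is an interval and the diamond is the bithorax interval. The bithorax interval lies apart from the others, with 31 early and 29 late positions.

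Late positions were nearly as many as early ones. There were 0.935 late positions per early one in the bithorax interval, against 0.446 in the whole lists and 0.447 on 3R. When only the 2390 strongest early positions were kept, so that both lists were of equal length, the ratio was 1.38 (exact binomial interval 0.761 to 2.55) in the interval and 1.09 on 3R, a smaller contrast. That binomial interval treats early and late positions as independent, which they were not. Of the early members kept, 90.5% had a late position within 200 bp. With the full lists, among the 61 intervals with at least 10 early positions the ratio was highest here, followed by 0.9 in another interval, with a median of 0.45. With lists of equal length, 1 of the 21 intervals compared had a higher ratio. With the top 50% of each list by score, 0 of 23 did. When positions up to 1000 bp apart were joined into regions, both lists gave 20 regions in the interval. That was the highest number of late regions among the 83 intervals, where the next had 13.

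The outermost late positions inside the interval were both strong and lay at unequal distances from its borders. That on the left, at 12545549 with a score of 96.8, was 65.5 kb from the border, and that on the right, at 12803836 with a score of 95.6, was 6.17 kb from it. The nearest late positions outside lay 152 kb to the left, with a score of 17.7, and 142 kb to the right, with a score of 12.6. Early positions were also found just outside. On the left the outermost scored 6.49 at 12482018, inside, and 6.31 at 12450636, outside. On the right they scored 69.1 at 12803845, inside, and 7.83 at 12817632, outside.

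Median scores of the members lay above the middle of their own list at both ages. The score is the authors' own value on a scale that is not stated, so it is given with its percentile, the share of its own list that scored lower. The 31 early members scored between 4.35 and 138, at a median of 18.3, and their median percentile was 71.3 (95% order-statistic interval 55.0 to 88.1, n = 31 positions). The 29 late members scored between 4.12 and 199.8, at a median of 21.7, and their median percentile was 67.5 (47.9 to 85.5, n = 29). The late order-statistic interval included the middle of its list. So did the early one with the highest score of each region (72.6, 34.1 to 88.3). It also did without the densest group described below (65.3, 32.9 to 86.0) or with ends 10 kb further out (68.5, 37.8 to 88.1). It did not with ends moved in (58.3 to 88.1). Nor did it with percentiles among positions of 3R (58.3 to 88.1) or of the large arms (54.9 to 88.1). Positions in the highest-scoring decile numbered 9 early (29.0%, exact binomial interval 14.2 to 48.0, against 9.99% of the early list) and 5 late (17.2%, 5.85 to 35.8, against 10% of the late list). These binomial intervals treat positions as independent, but 4 of the 9 and 2 of the 5 lay in a single stretch of 33 kb that holds the densest group. No other of the 83 intervals held more than 7 early or 3 late positions of that decile, but few held as many positions. By share, 2 of 61 intervals with at least 10 early positions were higher than the bithorax interval, up to 31.8%, and 9 of 22 with at least 10 late positions, up to 30%. Among these 61 and 22 intervals, the median percentile of the bithorax interval was the second highest in both lists, behind 77.8 early and 82.6 late. Some intervals with fewer positions had higher medians.

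**Figure D2:**
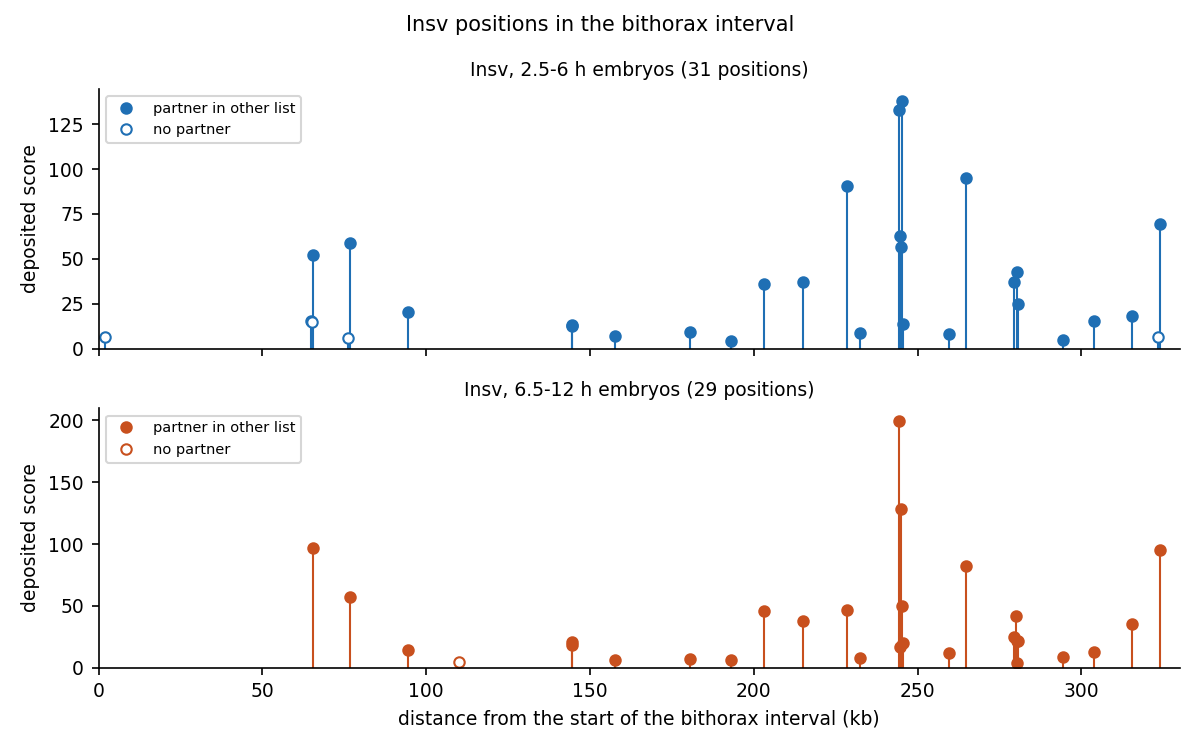
Deposited score of each Insv position (vertical axis, own scale per panel) by its distance in kb from the start of the bithorax interval, for 2.5-6 h embryos (top) and 6.5-12 h embryos (bottom). Filled points have a position of the other list within 200 bp and open points do not; the tallest points of both panels lie about 245 kb from the start, and 5 early points and 1 late point are open.

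Positions were uneven along the interval. Cut into 10 segments of 33 kb, the right-hand 5 segments, on the side of Abd-B in the gene order given above, held 21 of 31 early positions (67.7%) and 22 of 29 late ones (75.9%). They held 7 of the 9 early and 4 of the 5 late positions in the highest decile, and the segment with the densest group alone held 4 and 2 of these. The leftmost segment, on the side of Ubx, had a single early position and no late one. The longest spacing between neighbouring early positions, 62818 bp, followed that position, and the longest late spacing was 34499 bp, from 12589847 to 12624346. The median spacing was 9.54 kb early and 10.5 kb late. The longest stretch without a position, counted up to the borders, was 62818 bp early and 65548 bp late. Over the 83 intervals of 3R its median was 131140 bp early and 181484 bp late, and 4 and 1 intervals had a shorter one. This comparison was not adjusted for the number of positions.

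Most early positions of the interval were called again in the older embryos. Of the 31 early positions, 26 had a late position within 200 bp (83.9%, 95% exact binomial interval 66.3 to 94.5), against 43.3% of the whole early list. This was the highest share among the 61 intervals with at least 10 early positions, where the next had 80% and the median was 45%. In the other direction, 28 of 29 late positions had an early one within 200 bp (96.6%, 82.2 to 99.9), close to the 94.6% of the whole late list. These binomial intervals cover counting error only and treat neighbouring positions as independent. Because nearly all late positions had an early partner, here and in the whole list, the early share largely follows from the late-to-early ratio given above. It is not a result separate from that ratio, and the same holds for the numbers by score and by region that follow.

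Early members were paired more often than early positions of like score in the whole list, which is again not separate from the late-to-early ratio. With the share of each score decile of the whole early list applied to the members' own scores, 18.5 of the 31 (59.7%) would have had a late partner, where 26 did. Of the 22 members above the early list's median score, 20 had a partner (90.9%, against 65.8% of all positions above the median). Of the 9 members below the median, 6 had one (66.7%, 29.9 to 92.5, against 20.8%). The weakest early member, at 12673095, scored 4.35, at percentile 2.98 of its list, and had a late counterpart 26 bp away with a score of 6.40. The early position at 12774472 scored 4.81 and its late counterpart, 5 bp away, 8.71.

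Regions were compared in the same way. Of 20 early regions, 19 contained a position with a late partner (95%, 75.1 to 99.9), against 42.8% of all 3429 early regions. Of the 14 regions with a lone position, 13 had a partner (92.9%, 66.1 to 99.8), against 30.4% of such regions in the whole list. The 6 regions with several positions all had one, against 74.4%. The interval's regions also had higher top scores. The median was 12.5 for its lone positions and 9.36 for the 2450 lone positions elsewhere, and 55.7 for its regions with several positions against 32.7 over all such regions. With the share of each decile of top score applied to the interval's regions, 12.0 of 20 (60.2%) would have had a partner, where 19 did.

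**Figure D3:**
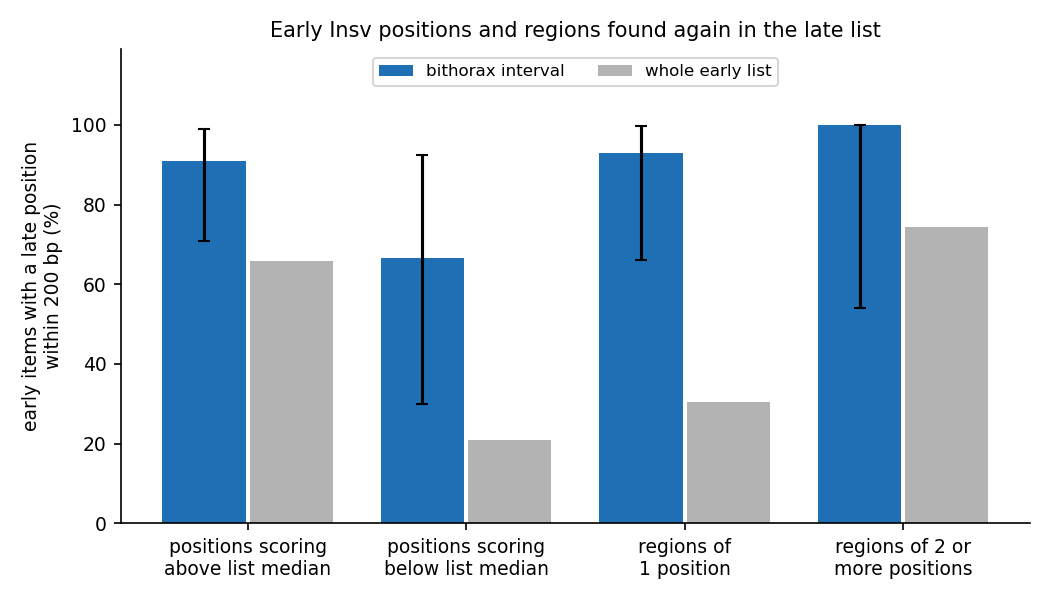
Percentage of early Insv positions or regions with a late position within 200 bp (vertical axis, from 0), in the bithorax interval (blue, with 95% exact binomial intervals) and in the whole early list (grey), by score or by number of positions in a region. The blue bar is the taller one in each class, at 66.7% against 20.8% for positions below the median score and 92.9% against 30.4% for lone positions.

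Unpaired members were mostly satellites of paired ones. Among the 5 early members that lacked a partner, 4 lay 359 to 713 bp from a late position. Those at 12544836 (score 15.2) and 12545145 (score 14.7) were above the median of their list. Both lay to the left of the early position at 12545548, which scored 52.4. The one at 12556255 scored 5.64 beside 59.0 at 12556667, and the one at 12803477 scored 6.58 beside 69.1 at 12803845. The remaining one was the leftmost position of the interval, at 12482018. The only late position without an early partner, at 12589847, scored 4.995, near the lower end of its list, with the nearest early position 15392 bp away.

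Paired positions nearly coincided. The 26 mutual pairs, in which each position was the nearest of the other, were 7 bp apart at the median and 26 bp at most, and 24 of them (92.3%) lay within 20 bp. Such closeness was general: all 2233 mutual pairs of the lists were 8 bp apart at the median, with 83.2% within 20 bp. At 12660562 and 12682967 both lists gave the same base.

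The densest group of the interval held 5 adjacent positions in both lists, over 1351 bp early (12724302 to 12725652) and 1357 bp late (12724295 to 12725651). Groups of this size were not rare, since 77 early and 13 late regions of the whole lists held more positions and 70 and 18 as many, itself included. By summed score, however, the group ranked 4th of 3429 early regions and 2nd of 1570 late ones. It made up 36.0% of the summed early scores and 36.2% of the summed late scores of the interval. In the early list the group's order from left to right was 133, 62.9, 56.3, 138 and 13.4. In the late list the scores were 199.8, 17.1, 128, 50.02 and 19.9, of which the first was the highest score of the whole late list. All 5 pairs lay within 8 bp of each other, so the positions nearly coincided while their relative heights differed.

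The 2 lists, each from 1 library, differed in how the score was spread over the group. The leftmost position took 32.9% of the group's summed score early and 48.2% late, and the middle one 14.0% early and 30.9% late. The second position went from 15.6% to 4.12%, and the fourth, the highest of the early list's group, from 34.2% to 12.1%. These shares assume that scores add up and that the ages differ at most by a constant factor, which was not tested. In the authors' names for the positions, all 5 early ones carry the rank number 1, which no other early position carries. The late names give the number 4 to the left 3 positions and 65 to the right pair. What this number ranks is not given in the sources used here.

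**Figure D4:**
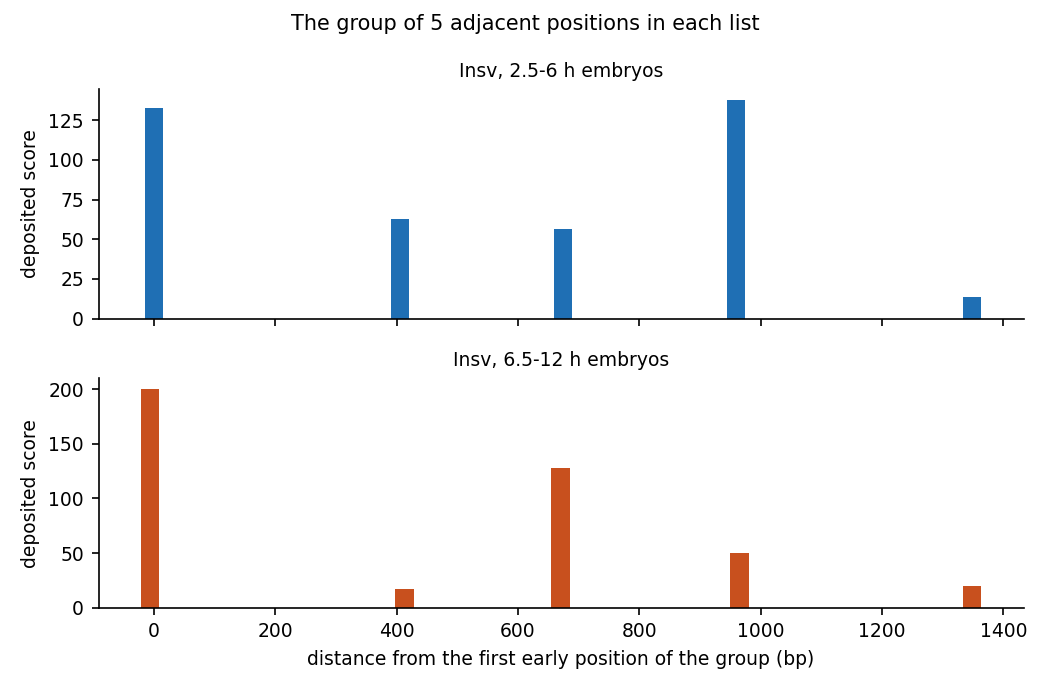
Deposited score (vertical axis, from 0, own scale per panel) of the 5 adjacent positions of the densest group by distance in bp from its first early position, for 2.5-6 h (top) and 6.5-12 h embryos (bottom). The tallest bars are the fourth and the leftmost early, at 138 and 133, and the leftmost and the middle one late, at 199.8 and 128.

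A second group lay further to the right, with 3 early positions from 12759265 to 12760641 and 5 late positions from 12759272 to 12760638. The early scores were 37.4, 42.7 and 25.0. The late scores were 24.7, 41.7, 21.8, 4.12 and 21.7. The late list thus had 2 more positions in the same stretch, at 12760115 and 12760421, which lay 116 and 190 bp from the early position at 12760231. Its highest late score was not at the position nearest to the early maximum, which scored 21.8, but at 12760115. Of all early members of the interval, 54.8% lay in regions of 2 or more positions, against 54.1% of the early list. Of the late members 41.4% did, against 54.4% of the late list.

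Other strong positions stood alone or beside lower-scoring ones. The position at 12744819 scored 94.9 early and 82.5 late, in the highest decile of both lists. That at 12708461 scored 90.8 early and 46.7 late, at percentiles 97.1 and 85.9. The position furthest to the right, 12803845, scored 69.1 early and 95.6 late, and the leftmost strong one, 12545548, scored 52.4 and 96.8. At 12556667 the scores were 59.0 and 57.1, with the late percentile of 89.2 just under the highest decile. The 5 late members of the highest decile were thus these positions at the left and right ends of the occupied stretch, the one at 12744823, and the leftmost and middle ones of the densest group.

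Other paired positions had moderate scores, higher early at some and late at others. At 12682967 the early score was 36.1 and the late score 46.2, and at 12695124 they were 37.2 and 37.5. The pair at 12624367 and 12624605 scored 12.4 and 13.0 early and 18.1 and 21.0 late. The position at 12795455 scored 18.3 early and 35.5 late, that at 12783684 15.5 and 12.9, and that at 12574455 20.4 and 14.7.

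Weak paired positions lay scattered between the strong ones. At 12637646 the early and late scores were 7.24 and 6.67, at 12660562 they were 9.46 and 6.97, and at 12712385 they were 8.64 and 8.03. The position at 12739437 scored 7.96 early and 11.9 late. Within the 26 pairs the deposited score was higher late in 13 (50%), against 34.8% of the pairs of 3R and 28.9% of all 2233 pairs. The median ratio of late to early score was 0.989 here, 0.784 over the pairs of 3R and 0.702 over all pairs. Since the scales are not known to be shared, only the contrast with the other pairs can be read.

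Percentiles gave the same contrast, with a sign that depended on the reference. Within the whole lists the late percentile was above the early one in 11 of 26 bithorax pairs (42.3%), against 19.8% of all pairs, and the median change was -2.92 points (order-statistic interval -11.5 to 5.97) against -14.0. Over the pairs of 3R, 25.6% were higher late and the median change was -10.3 points. Of the 19 intervals on 3R with at least 10 pairs, none had a median change above that of the bithorax interval, and the next had -3.55. By the share of pairs higher late, the bithorax interval came second, behind 45.5%. The late list is the shorter one, so whole-list percentiles of the 2 ages refer to sets of unequal size. Among mutual pairs alone, which gives both ages the same number of positions, the late percentile was higher in 21 of 26 (80.8%, against 50.6% of all pairs), with a median change of 9.49 points (2.06 to 18.4) against 0.224. On that scale the median over all 531 pairs of 3R was 2.37 points, and 2 of the 19 intervals had a higher median change than the bithorax interval.

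**Figure D5:**
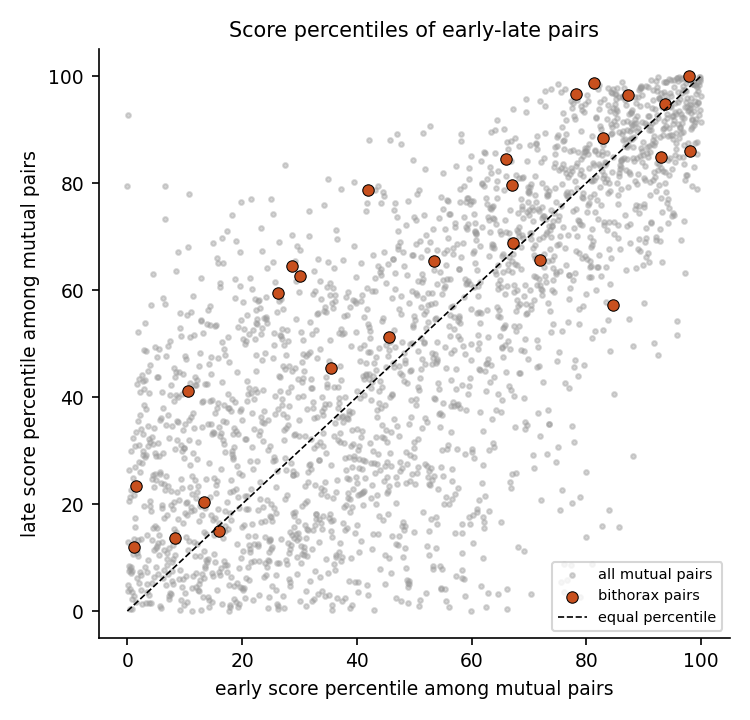
Score percentile among the 2233 mutual pairs in 2.5-6 h embryos (horizontal axis) and in 6.5-12 h embryos (vertical axis), for all pairs (grey) and the 26 bithorax pairs (orange); the dashed line marks equal percentiles. Of the bithorax pairs 21 lie above the line and 5 below it.

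On this scale the largest changes of bithorax pairs were gains at positions below the middle of the early pairs. They were not compared with other pairs of like early percentile. The position at 12795455 went from percentile 41.9 to 78.7, that at 12624605 from 28.6 to 64.4 and that at 12624367 from 26.2 to 59.4. Inside the densest group the rightmost position went from 30.1 to 62.7, and outside it the position at 12739437 went from 10.5 to 41.2. The largest loss was the second position of that group, at 12724707, from 84.6 to 57.3. The other 4 losses, at 12725261, 12708461, 12760231 and 12660562, were of 12.1, 8.11, 6.22 and 0.851 points.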

How the data were processed

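The authors deposited 1 list of called Insv positions per age, each position 2 bp wide with a score of their own; its scale is not stated. Per the submitters' processing notes, Bowtie was used and the build was dm3. For the peak caller, the calling threshold, the role of the IgG reads and the read depth, nothing is given in the sources used here, and the precision of a score is unknown. From the lists, percentiles, nearest distances (partner within 200 bp), regions (positions chained up to 1000 bp) and intervals of 330 kb laid out on 3R from the bithorax interval were computed with Python 3.11.15, numpy 2.4.6, pandas 2.3.3 and scipy 1.17.1, and drawn with matplotlib 3.10.9. Shares, ratios, median percentiles and median changes per interval needed at least 10 positions or pairs. The code was tested on simulated lists. Every member was examined; those in the highest decile, the extremes and unpaired positions above the median were to be named. The interval, comparisons and lists were chosen with earlier results of these data known. Promoter sequences and distances to genes were planned but not used here, because the gene table at hand is of Release 6.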

Additional observations from a re-analysis of the deposited data

How the results depend on the processing

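No paired analysis was possible because each age has 1 library, so leaving out a replicate was not possible either. Of 84 recomputed values, 69 stayed close to the reported one, within 1.5 times for counts and within its 95% interval otherwise. This compares each value with its own reported value and not its contrast with 3R or the whole lists. The ratio of 1.38 below thus counts as close, though its contrast with 3R was smaller. Regions in place of positions gave 20 early items, since neighbours are joined. With the top 50% of each list, 100% of late members had a partner, against 91.8% of that late list. With lists of equal length, 72.4% of late members had one, against 70.2%, because weak early positions were dropped, the late-to-early ratio was 1.38 against 1.09 on 3R, the median percentile change of bithorax pairs was 10.6 (all pairs -0.126), and the late percentile was higher in 78.9% of bithorax and 49.6% of all pairs. Percentiles among mutual pairs reversed the change to 9.49 (all pairs 0.224), with 80.8% and 50.6% higher late. Partners within 1000 bp were found for 96.8% of early members, against 56.8% of the list. An overlap of at least 1 bp, for positions 2 bp wide, left 16.1% of early and 17.2% of late members paired, against 4.51% and 10.1% of the lists. Without the densest group, an alternative chosen after seeing the data like those of the late-to-early ratio, 86.7% of equal intervals held fewer early positions, and the late number was still the highest on 3R. Without the read depth, unpaired positions cannot be told from positions just under a calling threshold.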
